A study of Mus musculus with 8 samples.

Results

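The transcripts described here encode the calcineurin and NFAT machinery that carries the calcium signal of the T cell receptor to the nucleus. They were chosen by name and comprise 4 transcription factors (Nfatc1, Nfatc2, Nfatc3 and Nfat5), 3 catalytic calcineurin subunits (Ppp3ca, Ppp3cb and Ppp3cc), the regulatory subunit Ppp3r1 and the calcineurin inhibitor Rcan1. They are 9 of 52459 gene symbols with values, and all 9 were among the 15419 genes tested. RNA was sequenced from regulatory T (Treg) cells, the Foxp3+ CD4+ T cells that restrain immune responses, of C57BL/6 mice in 8 libraries. The 4 groups of 2 libraries each were WT and Stim1/2-deficient cells, either unstimulated or given 1 µg/ml of plate-bound anti-CD3/CD28 in culture for 16 h. The deficient genotype is given in the labels as Stim1 fl/f and Stim2 fl/fll with Foxp3-YFPcre and is called DKO below.

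Both genotypes were sorted as CD4+CD25hi cells from pooled heterozygous females, WT cells as YFPcre- and DKO cells as YFPcre+. Cre is expressed from the Foxp3 locus on the X chromosome, so genotype and use of the YFPcre allele cannot be told apart. The age of the mice and whether the 2 libraries of a group came from separate sorts are not given in the labels, so p-values measure only the spread between these libraries. Neither floxed gene differed between the genotypes at limma adjusted p under 0.05. Still, both DKO libraries lay above both WT libraries for unstimulated Stim1. They lay below both WT libraries for unstimulated Stim2 and for stimulated Stim1. Stim1 was at 1139 and 1377 normalized counts in the unstimulated WT libraries and at 1538 and 1868 in the unstimulated DKO libraries (log2 difference 0.44, limma adjusted p = 0.236), and Stim2 was at 906 and 908 against 904 and 744 (−0.15, adjusted p = 0.721). After stimulation the differences were −0.15 for Stim1 (adjusted p = 0.807) and −0.13 for Stim2 (adjusted p = 0.827). Counts per gene do not separate a transcript that lacks a deleted exon, so these values do not check the deletion, and DKO stands for the libraries labelled Stim1/2-deficient throughout. The study itself reports loss of both transcripts by RT-PCR in Treg cells of male mice. It also reports that YFPcre+ Treg cells of heterozygous females lacked calcium entry after store depletion.

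Calcineurin is a calcium- and calmodulin-dependent phosphatase built of a catalytic A subunit and a regulatory B subunit. When STIM proteins sense emptied endoplasmic reticulum stores they open ORAI channels, and the calcium that enters activates calcineurin, which dephosphorylates NFAT proteins in the cytoplasm and lets them move into the nucleus. NFAT5 lacks the calcineurin-binding region of the other family members and is best known for the response to hypertonic stress. In Treg cells NFAT proteins cooperate with Foxp3 on DNA. Because this control acts on the proteins, transcript levels describe the supply of the components, not their activity.

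Values are normalized counts, that is reads per gene divided by 1 size factor per library. The libraries held 11851853 to 16306540 reads on genes, and 1 read was worth 0.759 to 1.48 normalized counts, so that 3 reads, taken as the floor, were 2.28 to 4.43 normalized counts. Unstimulated libraries carry the tag of lane 4 and stimulated libraries that of lane 1, so stimulation and lane cannot be told apart, whereas both genotypes lie in each lane. The Treg markers (6 genes) were abundant in every library, with summed levels from 40109 to 112665 normalized counts. They were lower in the unstimulated DKO libraries (40109 and 47805) than in the unstimulated WT libraries (91902 and 85605), and 2 of 6 were called lower. After stimulation they were also lower in DKO (67927 and 85817) than in WT libraries (94707 and 112665), and 0 of 6 were called. The unstimulated WT and DKO means were 36261 and 11835 for Ctla4, 19330 and 8815 for Ikzf2 and 10884 and 6921 for Il2ra. They were 9080 and 4602 for Foxp3, 9839 and 8684 for Cd4 and 3359 and 3099 for Cd3e, so the markers did not fall alike. The 8 macrophage markers summed to 9229.6 and 1402 in the unstimulated DKO libraries, against 218 and 264 in the unstimulated WT libraries and 93.7 to 163 in the stimulated ones, and 6 of 8 were called higher in the unstimulated DKO cells. The 8 B cell markers summed to 3407 and 860.1 there, against 214 and 310.2 in the unstimulated WT libraries, and 2 of 8 were called higher. In the stimulated libraries they summed to 867 and 163 in WT and to 1289.6 and 316 in DKO, so that WT stimulated 1 and DKO stimulated 1 stood above their partners. Summed CD8 T and NK cell markers ranged from 202 to 802 and erythroid markers from 23.7 to 179.95 over the 8 libraries. C1qa and C1qc were listed at 0 in both unstimulated WT libraries. Library DKO unstimulated 1 held the most macrophage and B cell transcripts, and the members' values without it follow their results. In bulk RNA, fewer cells expressing a gene and less RNA per cell cannot be told apart.

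Sequences immediately upstream of the transcription starts were taken for Nfatc2, Nfatc3, Nfat5, Ppp3cb, Ppp3r1 and Rcan1, and not for Nfatc1, Ppp3ca or Ppp3cc. They made up 9 windows of 250 bases (RefSeq, GRCm38.p6). They were searched on both strands for GGAAA, the core of the NFAT recognition sequence, for the longer TGGAAA that contains it, and for TGANTCA, the AP-1 element at which NFAT often binds together with Fos and Jun proteins. GGAAA is common, being present in 55.6% of 32851 such windows of the genome, and TGGAAA was found in 18.6% and TGANTCA in 6.75%. Windows of Rcan1 are shown because it is a classical NFAT target with alternative starts, only the inner of which is known to be calcineurin-responsive. A window of Nfatc3 is shown because Nfatc3 was the only NFAT transcript called lower with stimulation. All are written in the direction of transcription, with capitals marking GGAAA or its complement TTTCC. The first lies at chr16:92400079-92400328 (minus strand), the second at chr16:92466170-92466419 (minus strand) and the third at chr8:106058568-106058817 (plus strand).
Rcan1 inner start: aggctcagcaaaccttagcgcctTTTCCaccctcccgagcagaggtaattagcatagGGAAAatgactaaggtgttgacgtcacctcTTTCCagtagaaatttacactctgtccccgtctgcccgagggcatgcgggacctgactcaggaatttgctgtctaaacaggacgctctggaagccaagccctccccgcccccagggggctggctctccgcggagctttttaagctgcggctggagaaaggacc
Rcan1 outer start: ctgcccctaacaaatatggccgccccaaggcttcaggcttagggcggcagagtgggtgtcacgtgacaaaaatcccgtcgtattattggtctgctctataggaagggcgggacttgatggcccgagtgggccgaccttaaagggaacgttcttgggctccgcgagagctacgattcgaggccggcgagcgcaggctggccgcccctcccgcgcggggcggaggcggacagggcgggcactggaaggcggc
Nfatc3 first start: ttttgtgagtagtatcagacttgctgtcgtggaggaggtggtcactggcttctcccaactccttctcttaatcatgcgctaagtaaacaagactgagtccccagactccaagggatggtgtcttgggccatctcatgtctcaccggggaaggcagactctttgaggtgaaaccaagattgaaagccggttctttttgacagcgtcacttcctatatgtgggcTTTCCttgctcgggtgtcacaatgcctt

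The inner Rcan1 window held 3 GGAAA matches, 2 of them within TGGAAA, and 1 TGANTCA match. Of all windows, 2.28% held 2 or more TGGAAA matches. The outer Rcan1 window held 0 matches of any of these motifs, which says only that these letters are not in those 250 bases. The first Nfatc3 window held 1 GGAAA match and its other window 0. Among the rest, the windows of Ppp3cb and of 1 Nfatc2 start held 3 GGAAA matches each, that of Nfat5 held 2, that of the other Nfatc2 start 1 and that of Ppp3r1 0. A match is a string of letters and not evidence of binding.

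Nfatc1, whose short isoform is induced by NFAT itself in activated lymphocytes, was the only member called by genotype. It lies on chromosome 18 (80606205 to 80713071, RefSeq GRCm38.p6). Unstimulated WT libraries had 2499 and 2379.8 normalized counts and unstimulated DKO libraries had 1418 and 1388. Stimulated WT libraries had 2143 and 2022, and stimulated DKO libraries had 1737 and 1242. In each state both DKO libraries lay below both WT libraries. In unstimulated cells the log2 difference, DKO minus WT, was −0.80 (SE 0.20, 95% interval −1.23 to −0.36, limma adjusted p = 0.048). A gene was called when its adjusted p was under 0.05 and its change exceeded 1.5-fold, and 1 of 9 members met this in unstimulated cells against 4.73% of all tested genes (3.35% lower). The adjusted p lay near the threshold. It was 0.0601 by edgeR and 0.0145 by DESeq2, ranged up to 0.38 over 18 alternatives, and passed in 5 of them, with the level lower in DKO in each. Without DKO unstimulated 1 the difference was −0.81 (adjusted p = 0.0601), and without either WT unstimulated library the adjusted p was 0.38 or 0.169. The call was also lost without WT stimulated 1 (0.101), WT stimulated 2 (0.102) or DKO unstimulated 2 (0.0524).

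In stimulated cells the Nfatc1 difference was −0.50 (interval −0.94 to −0.07, unadjusted p = 0.0276, limma adjusted p = 0.282) and was not called. It ranged from −0.74 without DKO stimulated 1 to −0.26 without DKO stimulated 2. The interaction of genotype and stimulation, which asks whether the genotype difference changed with stimulation, was 0.29 for Nfatc1 (adjusted p = 0.792), so the genotype difference was not shown to change with stimulation. Stimulation itself changed Nfatc1 by −0.23 in WT cells (adjusted p = 0.427) and 0.07 in DKO cells (adjusted p = 0.828).

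Nfatc2, a family member that is present before activation in T cells, did not differ by genotype beyond the spread. It stood at 2164 and 1845 normalized counts in unstimulated WT libraries and at 1756 and 2193 in unstimulated DKO libraries. After stimulation it stood at 1567 and 1412 in WT and at 1351 and 1459 in DKO libraries. The genotypes overlapped in both states, with differences of −0.03 (adjusted p = 0.955) and −0.08 (adjusted p = 0.895). Each stimulated library lay below the unstimulated libraries of its genotype, but the stimulation difference of −0.43 in WT (adjusted p = 0.129) and −0.48 in DKO cells (adjusted p = 0.0866) was not called, and the DKO value passed without DKO unstimulated 1 (−0.64, adjusted p = 0.0254).

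Nfatc3 was the most abundant of the calcium-regulated factors and fell on stimulation in both genotypes. Its gene lies on chromosome 8 (106058818 to 106130537). Unstimulated levels were 7105 and 7842 normalized counts in WT and 7097 and 8716 in DKO libraries. Stimulated levels were 4261 and 3956 in WT and 3994 and 4061 in DKO libraries. No stimulated library overlapped an unstimulated one, and the genotypes overlapped in both states. The stimulation difference was −0.86 in WT cells (SE 0.17, interval −1.24 to −0.48, limma adjusted p = 0.00707) and −0.97 in DKO cells (SE 0.17, interval −1.35 to −0.59, adjusted p = 0.00377). In these 2 comparisons 23.3% and 25.0% of all tested genes were called (13.1% and 12.0% lower), against 2 of 9 members in each. The size of the Nfatc3 change depended on scaling. With every library set to the same total it was −0.34 in WT (adjusted p = 0.118) and −0.58 in DKO cells, neither called, while the median of all tested genes moved by 0.51 and 0.38. Relative to that median, Nfatc3 was at −0.86 in WT cells with equal totals and −0.87 as the authors scaled the data, but at −0.47 with quantile normalization, which gave −0.41 (adjusted p = 0.0512) and also lost the call. In DKO cells quantile normalization gave −0.58, under 1.5-fold. The call in WT cells was also lost without WT unstimulated 4 (adjusted p = 0.0763), WT stimulated 1 (0.0532) or WT stimulated 2 (0.0774). The genotype differences were 0.08 unstimulated (adjusted p = 0.843) and −0.03 stimulated (adjusted p = 0.968).

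Nfat5 stood at 5358 and 6788 normalized counts in unstimulated WT libraries and at 6497 and 7711 in unstimulated DKO libraries. Stimulated WT libraries had 6954 and 6326 and stimulated DKO libraries had 5882 and 4746. The unstimulated genotypes overlapped, whereas both stimulated DKO libraries lay below both stimulated WT libraries. No Nfat5 comparison was called. The genotype differences were 0.23 (adjusted p = 0.529) and −0.33 (adjusted p = 0.509), and the interaction of −0.56 had the smallest unadjusted p of the members (0.0685, adjusted p = 0.625). Stimulation changed Nfat5 by 0.14 in WT (adjusted p = 0.644) and −0.42 in DKO cells (adjusted p = 0.136), and the WT value was 0.66 with equal totals (adjusted p = 0.0193, 0.14 relative to the median of all genes) and 0.69 with quantile normalization (adjusted p = 0.0152, 0.63 relative to the median).

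**Figure D1:**
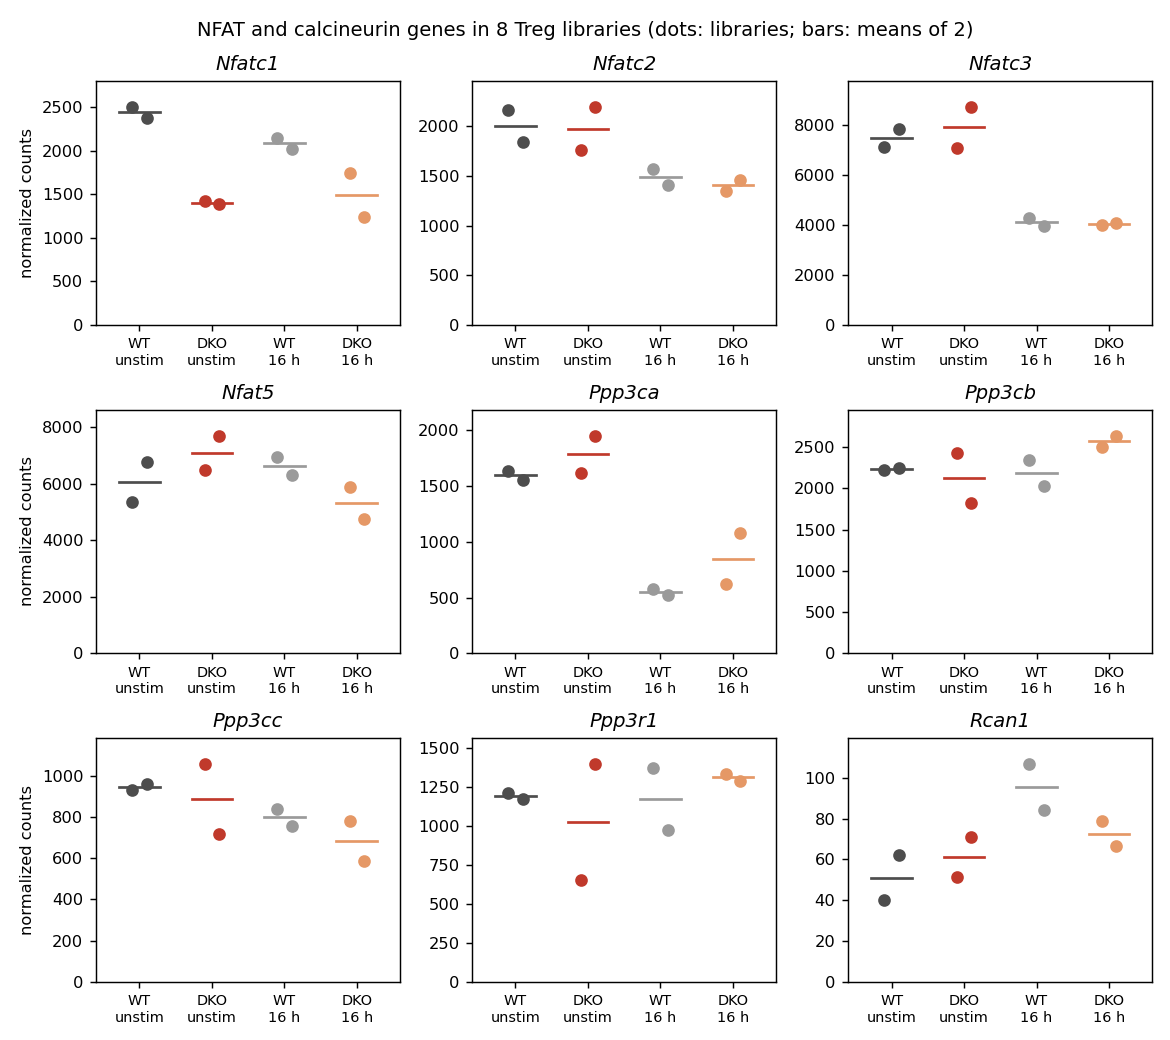
Normalized counts of the 9 members in each of the 8 libraries, 1 panel per gene, with the 4 groups on the horizontal axis, a linear vertical axis that starts at 0 and a bar at each group mean (n = 2). Nfatc1 shows both unstimulated DKO libraries below both WT libraries, and Nfatc3 and Ppp3ca show all stimulated libraries below all unstimulated ones.

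The catalytic subunits of calcineurin differed in how they moved. Ppp3ca, which encodes the A alpha subunit, stood at 1634 and 1557 normalized counts in unstimulated WT and at 1618 and 1953 in unstimulated DKO libraries. After stimulation it had 577 and 524 in WT and 618 and 1075 in DKO libraries. Every stimulated library lay below every unstimulated one. The stimulation difference was −1.54 in WT cells (SE 0.26, interval −2.10 to −0.97, limma adjusted p = 0.00338), and it remained called in all 18 alternatives (−1.66 to −1.02). In DKO cells it was −1.12 (SE 0.26, interval −1.69 to −0.56, adjusted p = 0.0112), and it was not called without DKO stimulated 1 (−0.73, adjusted p = 0.0629), with equal totals (−0.73, adjusted p = 0.0511) or with only the 4 libraries compared (adjusted p = 0.0592). The interaction was 0.41 (adjusted p = 0.78), so the fall was not shown to differ between genotypes. In stimulated cells both DKO libraries lay above both WT libraries (0.57, interval −0.00 to 1.14, adjusted p = 0.364), a difference that ranged from 0.17 to 0.97 when either DKO library was left out.

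Ppp3cb, which encodes the A beta subunit found in most lymphocyte calcineurin, stood at 2227 and 2242 normalized counts in unstimulated WT and 2423 and 1819 in unstimulated DKO libraries. Stimulated libraries had 2341 and 2029 in WT and 2496 and 2638 in DKO. No Ppp3cb comparison was called, with genotype differences of −0.09 (adjusted p = 0.828) and 0.24 (adjusted p = 0.643) and stimulation differences of −0.04 in WT (adjusted p = 0.909) and 0.29 in DKO cells (adjusted p = 0.285), the last rising to 0.68 with equal totals (adjusted p = 0.027). Ppp3cc, the A gamma subunit, stood at 932 and 959 normalized counts without stimulation in WT libraries, 1057 and 719.9 in unstimulated DKO, 839 and 758 in stimulated WT and 779.8 and 588 in stimulated DKO libraries. It was not called either, and its stimulation differences were −0.25 in WT (adjusted p = 0.484) and −0.36 in DKO cells (adjusted p = 0.281).

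Ppp3r1 encodes the calcium-binding B subunit that every lymphocyte calcineurin needs. The WT libraries had 1209 and 1169.9 normalized counts without stimulation, against 654 and 1394 in unstimulated DKO libraries. Stimulated libraries had 1369 and 969.6 in WT and 1331 and 1288 in DKO. The unstimulated DKO libraries lay on either side of the WT libraries, so the genotype difference of −0.32 (interval −1.02 to 0.39, adjusted p = 0.606) rests on which is used. It was −0.86 without DKO unstimulated 2 (adjusted p = 0.0475) and 0.23 without DKO unstimulated 1, the library with the most macrophage transcripts. The stimulation difference in DKO cells, 0.45 (adjusted p = 0.312), was 1.00 and −0.09 without the same libraries.

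Rcan1, a feedback inhibitor of calcineurin, was the least abundant member, with 37 to 137 reads per library. Normalized counts were 39.9 and 62.0 in unstimulated WT libraries and 51.4 and 70.8 in unstimulated DKO libraries. After stimulation they were 107 and 84.3 in WT and 78.6 and 66.7 in DKO libraries. Both stimulated WT libraries lay above both unstimulated WT libraries and above both stimulated DKO libraries. None of these differences was called. The stimulation difference was 0.92 in WT cells (interval 0.05 to 1.78, unadjusted p = 0.0405, adjusted p = 0.115) and 0.26 in DKO cells (adjusted p = 0.654), and the WT value was 1.43 with equal totals (adjusted p = 0.0189). The genotype difference was 0.27 in unstimulated (interval −0.60 to 1.14, adjusted p = 0.736), it was −0.39 after stimulation (adjusted p = 0.728), and the interaction was −0.66 (adjusted p = 0.766). The relative Rcan3, which also binds calcineurin, rose with stimulation. It went from 539.6 and 365 to 913 and 1393 normalized counts in WT (1.34, adjusted p = 0.0154) and from 417 and 528 to 1112 and 1955 in DKO cells (1.65, adjusted p = 0.00585). The WT call was lost without WT unstimulated 4 or WT stimulated 2. Nfatc4 was listed at 0 in all 8 libraries, and Ppp3r2 and Rcan2 did not exceed 4.19 normalized counts in any.

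Across the members, the stimulated genotypes gave 0 of 9 calls against 0.272% of all tested genes, and 0 members at unadjusted p under 0.05 with a change over 1.5-fold (12.6% of all genes), as well as 0 by edgeR and by DESeq2. By that unadjusted rule 1 member passed between the unstimulated genotypes (19.7% of all genes), 3 with stimulation in WT (35.1%) and 2 with stimulation in DKO cells (36.3%). Groups did not overlap for 1 of 9 members between the unstimulated genotypes (53.6% of all tested genes), for 5 of 9 between the stimulated genotypes (47.4%), for 6 of 9 with stimulation in WT (71.0%) and for 5 of 9 in DKO cells (61.4%), so that non-overlap was common among all genes. The members' median differences were −0.03 and −0.08 for genotype, unstimulated and stimulated, beside −0.01 and 0.02 over all genes. They were −0.23 and −0.36 for stimulation, in WT and DKO cells, beside 0.01 and −0.03. Without DKO unstimulated 1, the genotype differences of unstimulated cells were 0.13 for Nfatc2, 0.22 for Nfatc3, 0.35 for Nfat5, 0.29 for Ppp3ca, −0.30 for Ppp3cb, −0.39 for Ppp3cc and 0.50 for Rcan1, none called. In DKO cells the stimulation differences without it were −1.11 for Nfatc3 and −1.26 for Ppp3ca, both called, and 0.08 for Nfatc1, −0.55 for Nfat5, 0.50 for Ppp3cb, −0.09 for Ppp3cc and 0.03 for Rcan1, none called. The interaction gave 0 of 9 member calls (0.00% of all genes by limma, 0 genes by edgeR and 47 by DESeq2), while 1247 genes (8.09%) but 0 members passed at unadjusted p under 0.05 with a change over 1.5-fold.

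**Figure D2:**
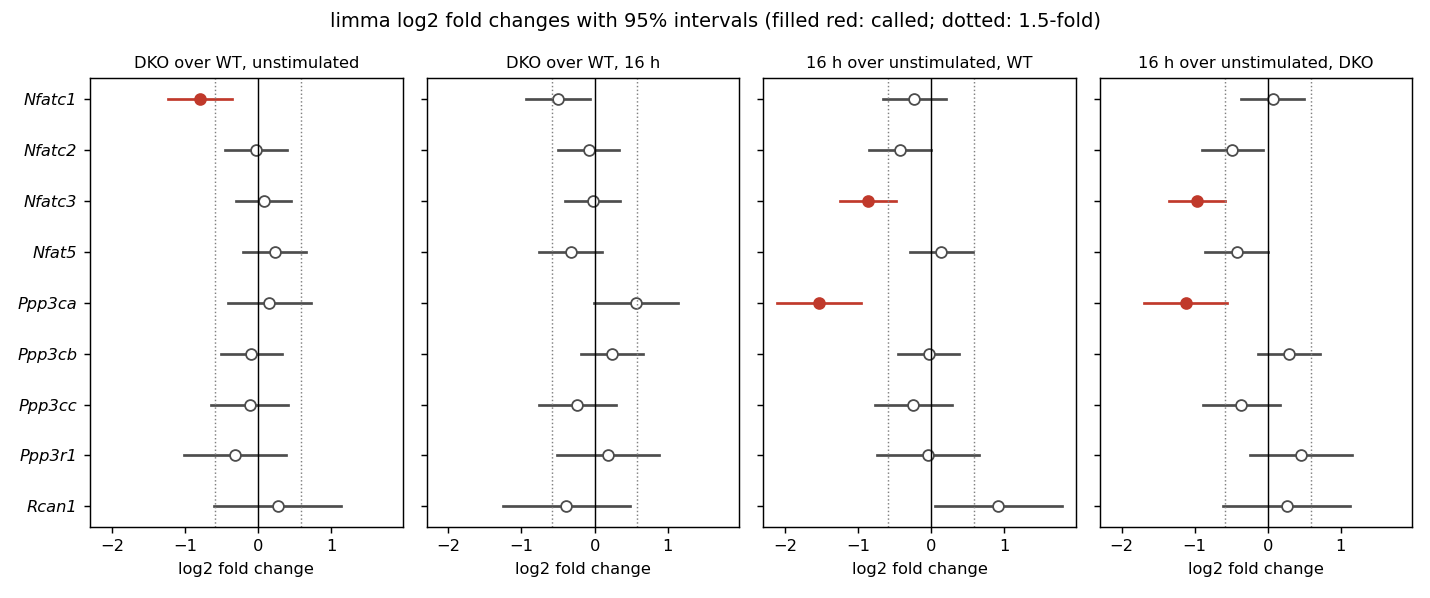
Log2 differences of the 9 members with 95% intervals from limma, for both genotype comparisons and both stimulation comparisons, with filled points for called members and dotted lines at 1.5-fold. Nfatc1 is called lower in unstimulated DKO cells (−0.80), and Nfatc3 and Ppp3ca are called lower with stimulation in both genotypes.

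Shares within a library do not depend on how libraries are scaled to each other. Of the reads on Nfatc1, Nfatc2 and Nfatc3 together, Nfatc1 took 21.2% and 19.7% in unstimulated WT and 13.8% and 11.3% in unstimulated DKO libraries. It took 26.9% and 27.4% in stimulated WT and 24.5% and 18.4% in stimulated DKO libraries. The 95% Wilson interval of each Nfatc1 share was within 0.893 percentage points and that of each Nfatc3 share within 1.07, which covers counting error only. Permuting genotype within stimulation state, the Nfatc1 share differed by −6.81 points in DKO libraries (exact two-sided permutation test, p = 0.0556, the smallest that the 36 arrangements allow, 0.0952 adjusted over 12 comparisons), and the Nfatc3 share was 6.02 points higher (p = 0.0556, exact). The shares of Nfatc1, Nfatc2 and Nfatc3 sum to the whole, and that of Nfatc2 differed by 0.79 points. The higher Nfatc3 share is therefore not a result separate from the lower Nfatc1 share. With stimulation, the Nfatc3 share fell from 60.4% and 65.0% to 53.5% and 53.5% in WT and from 69.1% and 70.9% to 56.4% and 60.1% in DKO libraries, −10.5 points over both genotypes (exact permutation p = 0.0556). This design cannot reach 0.05, so no share passed the threshold.

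Among the catalytic subunits, where the Wilson interval of each share was within 1.72 points, Ppp3ca took 34.1% and 32.7% of the reads in unstimulated WT and 31.7% and 43.5% in unstimulated DKO libraries. It took 15.4% and 15.8% in stimulated WT and 15.9% and 25.0% in stimulated DKO libraries. Shares sum to the whole, so a fall in 1 raises the others, and the Ppp3cb share went from 40.5% to 47.5% over the unstimulated libraries to 61.3% to 64.1% over the stimulated ones. Stimulated libraries thus did not overlap unstimulated ones for either subunit, by −17.5 points for Ppp3ca and 16.9 points for Ppp3cb (both exact permutation p = 0.0556, 0.0952 adjusted). By genotype the Ppp3ca share differed by 4.52 points (exact permutation p = 0.389), within the spread of the libraries.

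**Figure D3:**
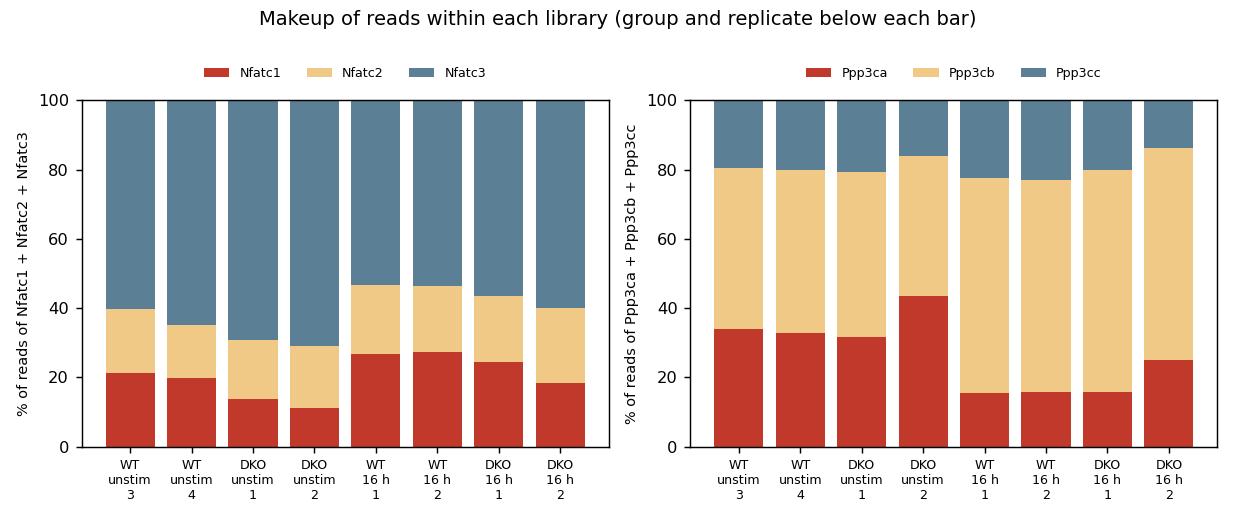
Percent of reads taken by each of Nfatc1, Nfatc2 and Nfatc3 within their sum, and by each of Ppp3ca, Ppp3cb and Ppp3cc within theirs, for each of the 8 libraries. Nfatc1 has its smallest shares in the unstimulated DKO libraries (13.8% and 11.3%), and Ppp3ca has smaller shares in the stimulated libraries.

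Compared per kilobase of exon sequence (exon lengths from GENCODE M1), Nfatc3 had the highest NFAT level in every group, at 1206 ± 84.1 normalized counts per kilobase in unstimulated WT (SD, n = 2) and 663 ± 34.8 in stimulated WT cells. Nfat5 came next at 330.4 ± 55.0 and 361 ± 24.2, then Nfatc1 at 328 ± 11.4 and 280.2 ± 11.5, and Nfatc2 was lowest at 189 ± 21.3 and 141 ± 10.4. The same order held in DKO cells, but Nfat5 and Nfatc1 overlapped in unstimulated WT and Nfatc1 and Nfatc2 in unstimulated DKO cells, where Nfatc1 had 189 ± 2.86 and Nfatc2 187 ± 29.2. Among the catalytic subunits the order was Ppp3cb, Ppp3cc, Ppp3ca in 3 of 4 groups. In unstimulated DKO cells Ppp3ca stood above Ppp3cc, and neighbouring subunits overlapped there. These orders rest on the exon lengths, since the annotation of the values is unknown and GENCODE M1 matched 54.9% of symbols. Without division by length, the means of Ppp3ca and Ppp3cc were 1595 and 946 in unstimulated WT cells. They were 550 and 799 in stimulated WT and 846 and 684 in stimulated DKO cells.

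The genes around the members were taken as lists and are described by counts. Of 10 tested calcineurin regulators and calmodulin genes, 0 were called higher and 1 lower in unstimulated DKO cells, namely Calm3, a calmodulin gene, at 341 and 283 against 824 and 588 normalized counts (−1.16, adjusted p = 0.0246), a call lost without any 1 of the WT libraries (adjusted p 0.0598 to 0.309). Its median was −0.28 in unstimulated and −0.15 in stimulated cells, where 0 were called. With stimulation, Calm2 fell in both genotypes (−1.43 in WT, adjusted p = 0.00312, and −1.53 in DKO cells, adjusted p = 0.00195) and Fkbp1a, which encodes the protein that binds FK506, rose (0.89, adjusted p = 0.024, and 1.32, adjusted p = 0.00415). The WT call of Fkbp1a was lost without any 1 of the WT libraries (adjusted p 0.0717 to 0.178). Chp1, a calcineurin B-like protein gene, fell in WT cells (−0.83, adjusted p = 0.0339), and Calm3 rose in DKO cells (0.83, adjusted p = 0.0253). Homer2 went from 21.6 and 39.9 to 0.78 and 2.28 normalized counts in WT cells (adjusted p = 0.0119). The stimulated values were 1 and 3 reads, at or under the floor of 3 reads. The call of Chp1 was lost without any 1 of the WT libraries (adjusted p 0.108 to 0.186) and with equal totals (−0.31), that of Calm3 without DKO unstimulated 2 or either stimulated DKO library (0.0739 to 0.0877), and that of Homer2 without either unstimulated WT library or WT stimulated 1 (0.0587 to 0.121). Of 10 NFAT kinases and export genes, 0 were called by genotype in either state (stimulated median −0.03). Stimulation lowered 3 in WT (Dyrk1a −1.29, Gsk3b −0.89 and Csnk1d −0.87) and 2 in DKO cells (Dyrk1a −0.93 and Gsk3b −0.82). Of all tested genes, 13.1% were called lower with stimulation in WT and 12.0% in DKO cells. Dyrk1a and Gsk3b encode kinases that rephosphorylate NFAT. With quantile normalization the WT value of Gsk3b was −0.485, under 1.5-fold. The WT calls were each lost without any 1 of the WT libraries (adjusted p 0.0507 to 0.158) and with equal totals. In DKO cells the Dyrk1a call (adjusted p = 0.0452) was lost in 11 of 19 alternatives, with a value of −0.36 without DKO unstimulated 2 and −1.49 without DKO unstimulated 1, and the Gsk3b call (adjusted p = 0.00789) was lost in 3 of 19. Of 6 tested hypertonicity genes that NFAT5 is known to control, 0 were called by genotype (medians −0.34 unstimulated and −0.28 stimulated). With stimulation Slc38a2, an amino acid transporter, fell in both genotypes (−1.83 in WT and −1.25 in DKO cells), Sgk1, a serum-regulated kinase gene, fell in WT cells (−1.50) and Slc5a3, a myo-inositol transporter gene, rose in DKO cells (0.79, adjusted p = 0.0454). The Slc5a3 call was lost in 10 of 19 alternatives, edgeR among them (adjusted p = 0.0503), and without either stimulated library of either genotype or DKO unstimulated 1. The DKO value of Slc38a2 (adjusted p = 0.0216) ranged from −1.91 without DKO unstimulated 1 to −0.59 without DKO unstimulated 2, and its call was lost in 4 of 19, including without either stimulated DKO library. Its WT call was lost without WT unstimulated 4 (adjusted p = 0.054).

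The list of 22 tested NFAT-responsive genes of T cells had 5 called lower in unstimulated DKO cells, against 3.35% of all tested genes. It had 0 called higher there and a median of −0.65 beside −0.01 over all genes. Several of its genes are named by the study from these same libraries, so its direction is not independent evidence. The largest called changes were in Havcr2 (−3.69), Tnfrsf9 (−3.08), Pdcd1 (−2.20) and Irf4 (−1.90), with limma adjusted p from 0.000125 to 0.0104, and Ctla4 was the remaining one. Without WT unstimulated 3 or 4 the calls of Havcr2, Pdcd1 and Irf4 were lost (adjusted p 0.0563 to 0.183), and without DKO unstimulated 1 Havcr2 was at −4.57, while the call of Tnfrsf9 was kept under every alternative. The same samples had lower summed Treg markers and more macrophage and B cell transcripts, whose part in these differences was not tested. Ctla4 and Il2ra are in both the Treg list and this list, so the 2 lists are not separate measures. In stimulated DKO cells 1 of 22 was called lower, Tnfrsf9, the receptor 4-1BB, at 2967 and 2334 against 6435 and 7068 normalized counts (−1.36, adjusted p = 0.0356), which edgeR did not call (adjusted p = 0.0556) and which was lost without any 1 of the WT libraries or DKO stimulated 2 (adjusted p 0.132 to 0.362). Stimulation raised 12 and lowered 2 in WT and raised 13 and lowered 1 in DKO cells, with medians of 1.804 and 2.19. Of all 15419 tested genes, 1580 were called higher and 2013 lower in WT, and 1997 higher and 1855 lower in DKO cells. The medians over all genes were 0.0051 and −0.0328. Il2, the T cell growth factor, went from 17.3 and 17.7 to 1469.9 and 771 normalized counts in WT (adjusted p = 0.0025) and from 19.9 and 4.01 to 2248 and 266 in DKO cells (adjusted p = 0.00144). Of the chemokine and cytokine genes with the largest called rises, Ccl3 went from 9.71 and 13.3 to 917 and 264 normalized counts in WT cells. Ccl4 and Csf2 stood at no more than 2.16 normalized counts, under the floor of 3 reads, in both unstimulated WT libraries and are given no fold there. In stimulated WT libraries Ccl4 had 422 and 121 and Csf2 88.1 and 52.4 normalized counts. Xcl1 rose by 3.79 on the log2 scale in DKO cells (adjusted p = 0.0215), from 49.3 and 12.0 to 795 and 155 normalized counts, and was not called without DKO unstimulated 2 (adjusted p = 0.13) or DKO stimulated 1 (0.131). DKO stimulated 1 also held more CD8 T and NK cell transcripts than DKO stimulated 2 (summed 802 against 245), whose part in these values was not tested. Nr4a1, named after its values were seen, is given as counts only. Its stimulated libraries lay below the unstimulated ones of the same genotype, at 737 and 853 against 3802 and 3748 in WT. In DKO cells they were at 869 and 1759 against 2346 and 6720.5, with the unstimulated libraries far apart. Groups did not overlap for 71.0% of all tested genes with stimulation in WT and for 61.4% in DKO cells.

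**Figure D4:**
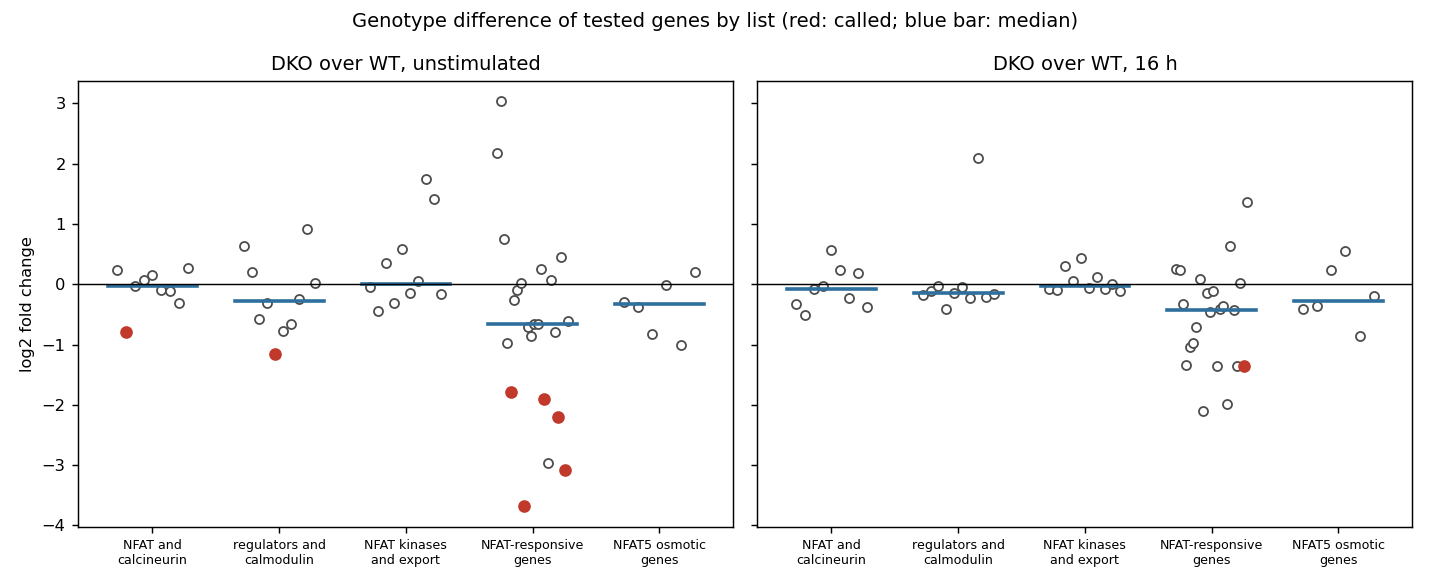
Log2 differences from limma, DKO minus WT, of the members and of the surrounding gene lists in unstimulated cells and after 16 h of stimulation, with 1 point per tested gene, called genes filled in red and a bar at each median. Of the NFAT-responsive genes 5 of 22 are called lower in unstimulated DKO cells (list median −0.65), and the members have a median of −0.03.

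The genes whose log2 levels were most correlated with each member over the 8 libraries were named as a description, since the libraries fall into stimulation groups and share lanes. For Nfatc1 they included Dtl (Pearson r = 0.99) and Atp2b4 (0.99), which encodes a plasma membrane calcium pump. For Nfatc3 they were the splicing factor gene Srsf3 (0.9988), Rsrc2 (0.99) and AC160334.3 (0.99), and for Ppp3ca Washc2 (0.997), the cell cycle inhibitor gene Cdkn1b (0.9954) and Trbv24 (0.99). For Nfatc2 they were Alkbh5, Safb and Tdp2 (each 0.98), for Nfat5 Bnip1 (0.96), Gm16135 (0.95) and 3110080O07Rik (0.95), and for Ppp3cb Tbck (0.95), Zfp945 (0.95) and Zfp120 (0.94). Ppp3cc was most like Cybb (0.99), Anxa1 (0.97) and B3gnt2 (0.96), of which Cybb encodes a subunit of the phagocyte oxidase. Ppp3r1 was most like Pdhx (0.95), Abhd13 (0.94) and Gm10654 (0.94), and Rcan1 was most like AC153971.2 (0.96), Gm23582 (0.96) and Gm43533 (0.96).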

How the data were processed

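Polyadenylated RNA of 8 libraries was sequenced. The study's methods name TruSeq RNA v2 libraries, Bowtie, the mouse build NCBIM37, removal of duplicate reads, HTSeq and DESeq2, whereas the submitters' processing notes name bcl2fastq 1.8.4, STAR 2.7, DESeq2 and mm10, without roles, and the labels name a stranded mRNA kit. Which applied to the table, and its annotation, are not given in the sources used here, and strand use in counting is thus unknown, so reads of overlapping genes may be shared. The deposited signal values are gene counts that the authors divided by a size factor per library, given to 2 decimals. Whole reads were recovered for 100% of values (within 0.01 normalized counts). No columns of the authors' comparisons were used.

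Genes averaging 10 normalized counts or more entered limma 3.58.1 (R 4.3.3, lmFit and eBayes with trend) on log2(value + 1) with 4 group means over 8 libraries, 2-sided, with Benjamini-Hochberg adjustment within each comparison. A fold change on this scale understates that of low genes. A gene was called at adjusted p under 0.05 and over 1.5-fold. The whole-read counts were also tested with edgeR 4.0.16 (quasi-likelihood) and DESeq2 1.42.0. Shares were tested by exact permutation (SciPy 1.17.1) and were added after values were seen. Further alternatives changed the pseudocount, filter, scaling, samples fitted and replicate block, or left out each library. The fits by limma, edgeR and DESeq2 were also run on simulated counts, with planted changes larger than those of any member. That run does not measure their error in these libraries. The members and gene lists were chosen with earlier results of these data known. The genes named were the members, the 3 genes most correlated with each (1 of which is not reported here) and, per list and comparison, up to 4 called genes with the largest change. Ctla4, Nr4a1 and the individual Treg markers were named after their values were seen. Symbols matched RefSeq GRCm38.p6 for 66.9% and GENCODE M1 for 54.9%. Protein sequences were not used here.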

Additional observations from a re-analysis of the deposited data

How the results depend on the processing

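Of the members' values under settings other than left-out libraries, 419 kept direction and side of the threshold, 13 lost a call, 4 gained one and 18 changed sign. Reversed log2 differences, none called in either setting, were as follows. For genotype in unstimulated cells, Nfatc2 was at 0.0945 with equal totals, 0.0255 with equal upper quartiles and 0.0681 with quantile normalization, Ppp3cb at 0.0302 and 0.0406 and Ppp3cc at 0.0042 and 0.0331 with equal totals and quantile normalization. For genotype in stimulated cells, Nfatc3 was at 0.0387 with equal upper quartiles. For stimulation in WT cells, equal totals gave Nfatc1 0.29, Nfatc2 0.0941, Ppp3cb 0.48, Ppp3cc 0.27 and Ppp3r1 0.47, and quantile normalization gave Nfatc1 0.11, Ppp3cb 0.31 and Ppp3r1 0.17. For stimulation in DKO cells, Nfatc1 was at −0.0464 with equal upper quartiles and Ppp3cc at 0.0254 with equal totals. Equal totals and equal upper quartiles change the scaling alone, whereas quantile normalization also reshapes each distribution. Equal totals moved the median of all genes by 0.12 for genotype in unstimulated cells and by 0.51 and 0.38 for stimulation in WT and DKO cells, and quantile normalization by 0.05 for stimulation in WT cells.

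Members called by genotype in unstimulated cells went from 1 to 0 with edgeR, equal totals, equal upper quartiles, quantile normalization, pseudocount 0.1, every gene above 0 and only the 4 libraries compared. Members called by stimulation in DKO cells went from 2 to 1 with equal totals, quantile normalization and only the 4 libraries. Over all genes, the 730 calls by genotype in unstimulated cells became 1321 with DESeq2, 484 with edgeR, 362 with every gene above 0, 338 with the 4 libraries and 3043 at unadjusted p. The 42 calls in stimulated cells became 525 with DESeq2, 1 with edgeR, every gene above 0 or the 4 libraries, 8 and 74 with pseudocounts 0.1 and 5, 82 with a mean of at least 100, 69 with equal upper quartiles, 202 with quantile normalization and 1936 at unadjusted p. The 3593 calls by stimulation in WT cells became 5414 at unadjusted p, the 3852 in DKO cells 1752 with the 4 libraries, and the 0 interaction calls 47 with DESeq2 and 1247 at unadjusted p. The cause was not tested.

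Leaving out 1 library at a time, the counts over all genes ranged from 8 to 1298, 0 to 762, 971 to 4276, 2599 to 4229 and 0 to 196 in the order of comparisons above, and members called from 0 to 1 by genotype in unstimulated cells, 1 to 2 by stimulation in WT and 1 to 3 in DKO cells. Values whose sign changed ranged, for genotype in unstimulated cells, from −0.19 to 0.13 (Nfatc2), −0.0729 to 0.22 (Nfatc3), −0.30 to 0.12 (Ppp3cb), −0.39 to 0.16 (Ppp3cc), −0.86 to 0.23 (Ppp3r1), −0.04 to 0.58 (Rcan1) and −0.20 to 0.36 (Rcan3), and in stimulated cells from −0.0813 to 0.0258 (Nfatc3), −0.0637 to 0.43 (Ppp3r1) and −0.0202 to 0.79 (Rcan3). With stimulation they ranged in WT cells from −0.0334 to 0.31 (Nfat5), −0.14 to 0.0671 (Ppp3cb) and −0.29 to 0.20 (Ppp3r1), and in DKO cells from −0.18 to 0.31 (Nfatc1) and −0.0905 to 1.00 (Ppp3r1). The interaction ranged from −0.22 to 0.10 (Nfatc2), −0.25 to 0.0452 (Nfatc3), −0.40 to 0.16 (Ppp3cc), −0.0448 to 1.05 (Ppp3r1) and −0.10 to 0.71 (Rcan3). A block for the replicate number, which no label ties to a shared batch, gave 88 calls by genotype in stimulated cells and 4854 by stimulation in DKO cells; differences between same-numbered libraries correlated at 0.167 and 0.257, and 0 and 2 members were called. With 2 libraries per group and 37 to 137 reads on Rcan1, its differences were the least precise. Of the values of the other named genes, 68 lost a call when a library was left out and 27 under other settings.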
